A study of Sus scrofa with 12 samples.

Results

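Bone morphogenetic proteins (BMPs) and activins are secreted dimers of the TGF-β superfamily, and their reach in a tissue is set in part by secreted antagonists that bind them before they meet a receptor. The 9 genes described here are the ligand genes BMP2, BMP4, BMP6, BMP7 and INHBA and the genes of the antagonists and related proteins FST, FSTL1, CHRDL1 and GREM1. They were chosen by name, with earlier results of these data known. Each was matched by its symbol to 1 of the 35682 pig gene identifiers counted in 12 RNA-seq libraries. The libraries came from the hearts of 6 female Yorkshire pigs, named by their animal numbers 1022, 1322, 1323, 1623, 1922 and 3622, each of which gave 1 border zone library and 1 remote zone library. Border zone tissue lay next to the infarct, and remote zone tissue came from the posterior wall, both with the label Mid. All animals entered the study at 10 to 12 weeks of age and had a balloon inflated in the left anterior descending coronary artery for 60 min, followed by reperfusion. From day 9 after the injury all were immunosuppressed with 3 drugs. These were tacrolimus at a daily dose of 0.75 mg/kg, mycophenolate mofetil at a daily dose of 500 mg, and prednisolone, of which 20 mg was given each day. On day 14 each animal received either EPC-SMC vascular organoids held in place with fibrin sealant, or fibrin glue alone, and hearts were taken 28 days later. Which animal received which was not used here, so each zone holds animals of both kinds, and the study's sham animals were not analysed here. The organoids were made of human cells, and the reads were aligned to the pig genome alone, so reads of any surviving human cells could not be told apart from pig reads.

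BMPs bind pairs of type I and type II receptors that phosphorylate SMAD1, SMAD5 and SMAD9, whereas activins, built from inhibin beta subunits such as the product of INHBA, act through SMAD2 and SMAD3. Follistatin (FST) holds activins and, more weakly, some BMPs. Chordin-like 1 (CHRDL1) and gremlin 1 (GREM1) bind BMPs. Follistatin-like 1 (FSTL1) shares a follistatin domain but has a wider set of described partners. In the heart these proteins are known from valve and chamber development and from scar formation after infarction.

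Total counts on genes ranged from 15130210 to 30526110 in border zone libraries and from 20091415 to 31618680 in remote zone libraries. Levels are given as CPM, counts scaled by library size, with trimmed mean of M-values (TMM) factors, and fold changes are border zone over remote zone on the log2 scale with their standard errors. Defining cardiomyocyte markers were detected in every library, with a summed level of 9 markers between 10704 and 57461 CPM in border zone libraries and between 45570 and 80688 CPM in remote zone libraries. The border zone library of animal 1022 stood apart with the lowest of these sums, and fitted changes are given with and without that animal. The border zone library of animal 3622 had the lowest total and counts on 28024 genes, where the other 11 libraries had counts on 16932 to 20148. Mitochondrial genes took 33.5% of the counts in the remote zone of animal 3622, 21.4% in that of animal 1322 and 5.69% to 17.3% in the other 10 libraries.

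FSTL1 was the 1 member that rose in the fit with region as the only term, and no member passed with the animal as a block, where the adjusted p of FSTL1 was 0.0772 by edgeR. Its level was 212 to 1215 CPM in the border zone against 118 to 157 CPM in the remote zone, and the log2 fold change of 1.76 (SE 0.36) had an adjusted p of 0.0328 by the quasi-likelihood test of edgeR, adjusted over 13844 genes by the Benjamini-Hochberg method. INHBA, FST, CHRDL1 and BMP2 had fitted changes between 1.38 and 3.15 on the log2 scale that did not pass, with adjusted p-values of edgeR between 0.0853 and 0.110. In the fit with the block their changes were 0.998 to 1.75, with adjusted p-values of edgeR between 0.135 and 0.192. BMP4 (0.35) and BMP6 (0.47) had the smallest fitted changes of the 7 members tested. BMP7 and GREM1 were too low for the filter on low counts. In counts, 1 of 7 members tested was called higher and 0 were called lower, where 2.06% of all genes tested were called higher and 2.07% were called in either direction. All 7 members tested had a fitted change above 0, as did 53.3% of all genes tested, and 5 of 7 were above 1, as were 11.8% of all genes tested. An unadjusted p under 0.05 was reached by 5 of 7 members and by 24.7% of all genes tested. The border zone was higher in at least 5 of 6 animals for 6 of 7 members and for 28.8% of all genes tested. These shares are descriptions only, as the members were chosen with earlier results of these data known. The Wald test of DESeq2 called FSTL1, CHRDL1 and FST, where it called 6.01% of all genes it tested, and 4.93% as higher. The genes it tested had a p-value, but some, such as GREM1, had no adjusted p and could not be called. Its shares over genes with an adjusted p are therefore higher.

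**Figure D1:**
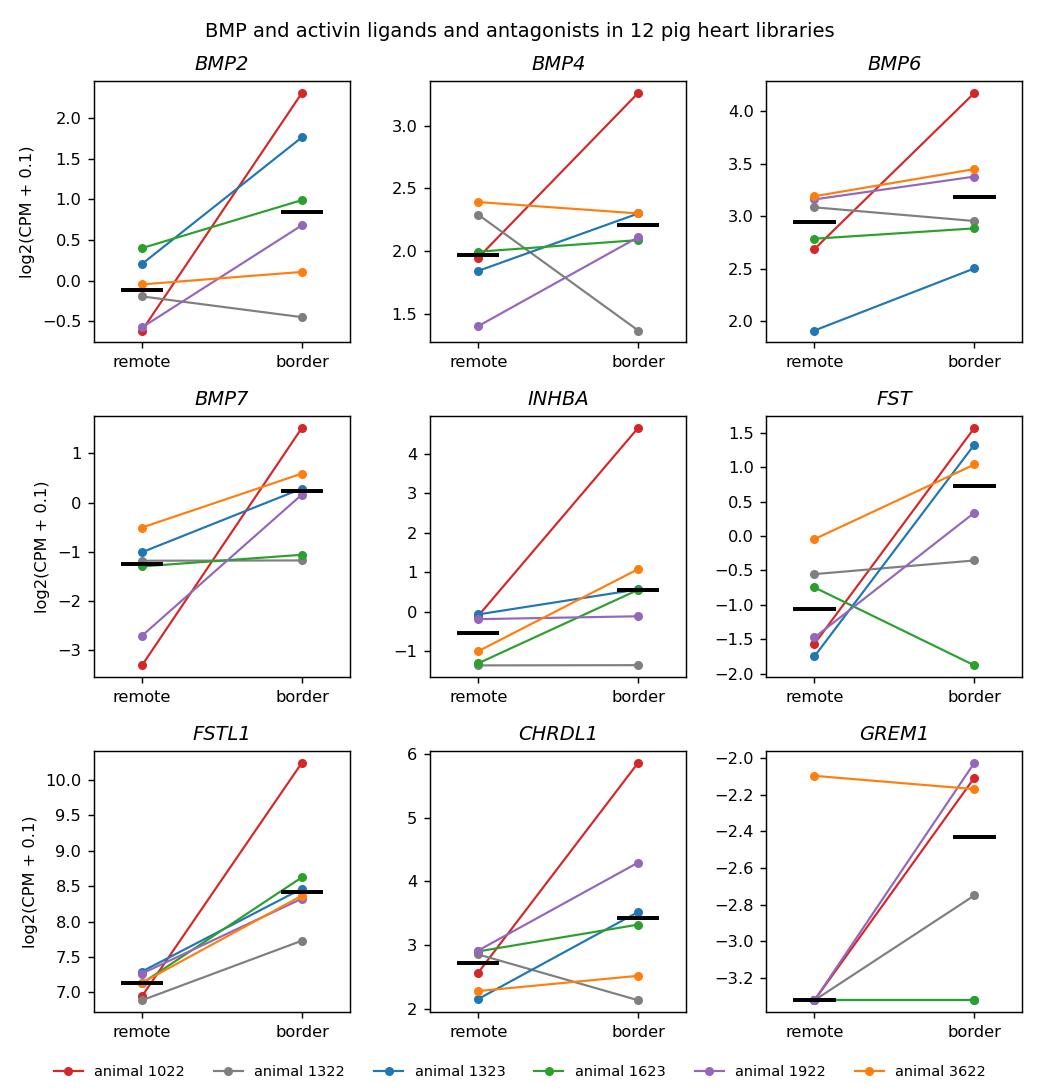
Levels of the 9 members as log2(CPM + 0.1) in the remote and border zone libraries, with 1 line for each animal and a black bar at the median of each zone. The scale differs between panels, and FSTL1 is the only panel in which all 6 border zone points lie above all 6 remote zone points.

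The 300 bases before the RefSeq gene start are shown for 3 members, FSTL1 as the member that passed the test, CHRDL1 as a BMP antagonist that did not pass it, and BMP2 as a ligand gene whose window holds matches to Smad-type motifs. The sequences are from Sscrofa11.1 with RefSeq annotation, written 5′ to 3′ on the strand of the gene, and capitals mark matches on either strand to GGCGCC and CAGAC, which resemble the sites bound by BMP and activin Smads.
FSTL1, plus strand of chr13:139846946-139847245: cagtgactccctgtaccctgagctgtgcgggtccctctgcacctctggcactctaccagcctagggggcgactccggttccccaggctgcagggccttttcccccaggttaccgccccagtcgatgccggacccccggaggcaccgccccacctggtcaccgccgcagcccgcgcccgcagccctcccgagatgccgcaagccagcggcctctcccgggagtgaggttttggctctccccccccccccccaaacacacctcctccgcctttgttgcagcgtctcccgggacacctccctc
CHRDL1, minus strand of chrX:90827217-90827516: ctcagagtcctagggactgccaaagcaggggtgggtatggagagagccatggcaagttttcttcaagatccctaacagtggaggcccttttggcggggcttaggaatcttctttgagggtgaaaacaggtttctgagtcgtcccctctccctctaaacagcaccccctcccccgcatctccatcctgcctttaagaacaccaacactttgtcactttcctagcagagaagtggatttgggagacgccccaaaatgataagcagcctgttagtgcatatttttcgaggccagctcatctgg
BMP2, plus strand of chr17:15750187-15750486: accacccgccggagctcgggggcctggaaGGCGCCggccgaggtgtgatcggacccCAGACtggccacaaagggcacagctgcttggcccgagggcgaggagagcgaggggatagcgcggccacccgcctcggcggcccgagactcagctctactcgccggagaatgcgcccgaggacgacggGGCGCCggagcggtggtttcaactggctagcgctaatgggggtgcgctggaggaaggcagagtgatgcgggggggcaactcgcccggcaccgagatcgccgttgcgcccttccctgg
The BMP2 window held 2 matches to GGCGCC and 1 to CAGAC, and the FSTL1 and CHRDL1 windows held 0 of either. Of the members whose windows are not printed, BMP6 had 1 match to GGCGCC and 4 to CAGAC, GREM1 had 1 of each, BMP4 and BMP7 had 1 to CAGAC, and FST had 0. INHBA is left out, as it had more than 1 RefSeq locus. Over 19556 such windows, 17.5% held GGCGCC and 44.6% held CAGAC. The search on both strands also covered TGANTCA, the AP-1 site, and TATAAA, the TATA box, which were found in 6.34% and 11.9% of all windows and in 0 of these 3. GGCGCC and CAGAC can share their end base, and the matches in the BMP2 window did not overlap. Bases G and C made up 70.3% of the FSTL1 window, 51.7% of the CHRDL1 window and 71.3% of the BMP2 window, against a median of 56.7% over all windows. A match is a description of letters, and the windows were not measured in this experiment.

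Gene positions below are those of the RefSeq models on Sscrofa11.1. Among the ligands, BMP2 (ENSSSCG00000039442, chr17:15750487-15762982, plus strand), a short-range BMP known from cardiac cushion formation, was measured at 4.86, 0.633, 3.30, 1.89, 1.51 and 0.978 CPM in the border zone of animals 1022, 1322, 1323, 1623, 1922 and 3622. In the remote zone of the same animals it was 0.554, 0.775, 1.05, 1.22, 0.572 and 0.869 CPM. The border zone was higher in 5 of 6 animals and lower in animal 1322, and 4 border zone libraries lay above the highest remote zone library. BMP2 gave 11 to 147 counts per library, and the fitted log2 fold change was 1.38 (SE 0.46, adjusted p = 0.105 by edgeR). Without animal 1022 the fitted change was 0.88, with an adjusted p of 0.333 by edgeR.

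BMP4 (ENSSSCG00000005045, chr1:183415989-183422888, minus strand), a close relative of BMP2 that signals through the same receptors, stood at 9.48, 2.48, 4.83, 4.15, 4.22 and 4.83 CPM in the border zone of the animals in the same order. The remote zone held 3.76, 4.80, 3.49, 3.89, 2.55 and 5.15 CPM. The zones overlapped, with animals 1322 and 3622 lower in the border zone and the library of animal 1022 the only border zone library above the remote zone range. The fitted log2 fold change was 0.35 (SE 0.29, adjusted p = 0.482 by edgeR), and 0.04 without animal 1022. BMP2 counts per BMP4 count were 0.203 to 0.683 in border zone libraries and 0.147 to 0.314 in remote zone libraries, so BMP2 gave fewer counts than BMP4 in every library.

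BMP6 (ENSSSCG00000001027, chr7:5058817-5208868, plus strand), the ligand best known for setting hepcidin levels in iron balance, was at 18.0, 7.65, 5.56, 7.28, 10.3 and 10.8 CPM in the border zone and at 6.33, 8.38, 3.65, 6.79, 8.84 and 9.03 CPM in the remote zone, in the same order of animals. It was higher at the border in 5 of 6 animals, but only 3 border zone libraries exceeded every remote zone library. Animal 1323 was the lowest in both zones. The fitted change was 0.47 (SE 0.29, adjusted p = 0.327 by edgeR) and 0.18 without animal 1022.

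BMP7 (ENSSSCG00000007501, chr17:57567770-57676516, minus strand), a ligand with described anti-fibrotic actions in kidney and heart, was close to the limit of detection. It gave 84, 7, 38, 11, 21 and 23 counts in the border zone and 0, 7, 12, 8, 1 and 9 counts in the remote zone, in the same order of animals. In CPM this was 0.341 to 2.78 in the border zone, with a median of 1.07, and 0 to 0.602 in the remote zone, with a median of 0.322. The 0 in the remote zone of animal 1022 allows up to 0.119 CPM, the level of 3 counts, which covers counting error only. BMP7 was higher at the border in 6 of 6 animals, although the difference in animal 1322 was 0.341 against 0.339 CPM on 7 counts each. The mean within-animal difference on the log2(CPM + 0.1) scale was 1.73 ± 1.83 (SD, n = 6), with p = 0.03125 by a two-sided exact permutation test of signs, the smallest p that 6 animals allow. Without animal 1022 it was 1.11 ± 1.13 (SD, n = 5), with p = 0.0625 by the exact permutation test, the smallest that 5 animals allow. With a pseudocount of 0.5 and all 6 animals the difference was 0.991 ± 0.997 (SD, n = 6), again with p = 0.03125 by the exact permutation test. The test over 6 animals was 1 of 2 such tests and is not adjusted for the number of tests. BMP7 did not pass the filter on low counts, and when all genes were fitted without that filter its adjusted p was 0.184 by edgeR, with a log2 fold change of 1.99.

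INHBA (ENSSSCG00000035077), which encodes the beta A subunit of activin A, had the largest fitted change among the members and the widest spread. The border zone libraries held 25.2, 0.292, 1.38, 1.37, 0.825 and 2.02 CPM in animals 1022, 1322, 1323, 1623, 1922 and 3622, and the remote zone libraries 0.831, 0.291, 0.856, 0.305, 0.780 and 0.401 CPM. The border zone library of animal 1022 alone carried 763 of the 906 border zone counts, and 81.1% of the summed border zone CPM. INHBA was nominally higher in 6 of 6 animals, but in animal 1322 both zones gave 6 counts and in animal 1922 they gave 17 and 15. The fitted log2 fold change was 3.15 (SE 0.96, adjusted p = 0.0853 by edgeR), 1.75 (SE 0.68, adjusted p = 0.135) with the animal as a block, and 1.14 (SE 0.52, adjusted p = 0.286) without animal 1022. The pig gene INHBA had more than 1 RefSeq locus, so no position or length is given for it.

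Among the antagonists, FST (ENSSSCG00000016892, chr16:32806341-32811382, plus strand), whose product binds activin almost irreversibly, was measured at 2.87, 0.682, 2.41, 0.172, 1.17 and 1.96 CPM in the border zone and at 0.238, 0.581, 0.198, 0.496, 0.260 and 0.869 CPM in the remote zone, in the same order of animals. It was higher at the border in 5 of 6 animals. Animal 1623 went the other way, with 5 counts in the border zone and 13 in the remote zone, and its border zone library was the lowest of all 12. The fitted log2 fold change was 1.84 (SE 0.59, adjusted p = 0.0967 by edgeR) and 1.43 (adjusted p = 0.278 by edgeR) without animal 1022. The Wald test of DESeq2 gave FST an adjusted p of 0.0459.

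The ratio of FST to INHBA counts, antagonist over ligand subunit, ran from 0.114 to 2.33 in border zone libraries and from 0.231 to 2.17 in remote zone libraries. The lowest ratio was in the border zone of animal 1022, where INHBA was highest, and the highest was in the border zone of animal 1322, where INHBA gave 6 counts. The medians were 1.19 and 0.979, and the 2 ranges overlapped over most of their length.

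FSTL1 (ENSSSCG00000039426, chr13:139847246-139901972, plus strand) encodes a secreted glycoprotein made by fibroblasts and other mesenchymal cells. The border zone of animals 1022, 1322, 1323, 1623, 1922 and 3622 held 1215, 212, 353, 395, 320.4 and 330.0 CPM, and the remote zone 123, 118, 157, 139.8, 154 and 140.5 CPM. Every border zone library exceeded every remote zone library, which 1.99% of all genes tested did, and the remote zone libraries lay close together. FSTL1 was higher in 6 of 6 animals, as were 11.7% of all genes tested, with within-animal differences between 0.84 and 3.30 on the log2 scale. In bulk tissue a larger share of the cells that make an RNA and more of that RNA per cell cannot be told apart.

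The size of the FSTL1 change depended on animal 1022, but its direction was the same in every fit run. That library held 43.0% of the summed border zone CPM. Without animal 1022 the log2 fold change was 1.18 (SE 0.17) and the adjusted p was 0.0100 by edgeR. With the animal as a block the change was 1.49 (SE 0.33) and the adjusted p was 0.0772 by edgeR, so the call was lost, and 0 of 7 members passed in that fit, where 0.296% of all genes tested passed and 0.289% were higher, while 4 of the 7 members and 4069 of the 13844 genes had an unadjusted p under 0.05. With the block and without animal 1022 it was 1.16 (SE 0.13) with an adjusted p of 0.00372, in a fit that called 6.19% of all genes tested, and 4.11% as higher. With the block and animal 1322, 1323, 1623, 1922 or 3622 left out, FSTL1 was not called. The changes were then 1.49 to 1.61, with adjusted p-values of 0.0757, 0.177, 0.155, 0.115 and 0.227 by edgeR. These fits called 51, 10, 0, 0 and 0 genes in all. The call was also lost when animal 1323, 1623, 1922 or 3622 was left out of the fit without the block, with adjusted p-values of 0.123, 0.114, 0.0825 and 0.0950 by edgeR. In those fits the FSTL1 change was 1.83 to 1.88, and 3, 0, 15 and 0 genes were called in all, with 2448 to 3104 genes at an unadjusted p under 0.05. A long noncoding gene, LOC110256418, overlaps FSTL1 by 7072 bases on the opposite strand in the RefSeq annotation, and the libraries did not keep strand.

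**Figure D2:**
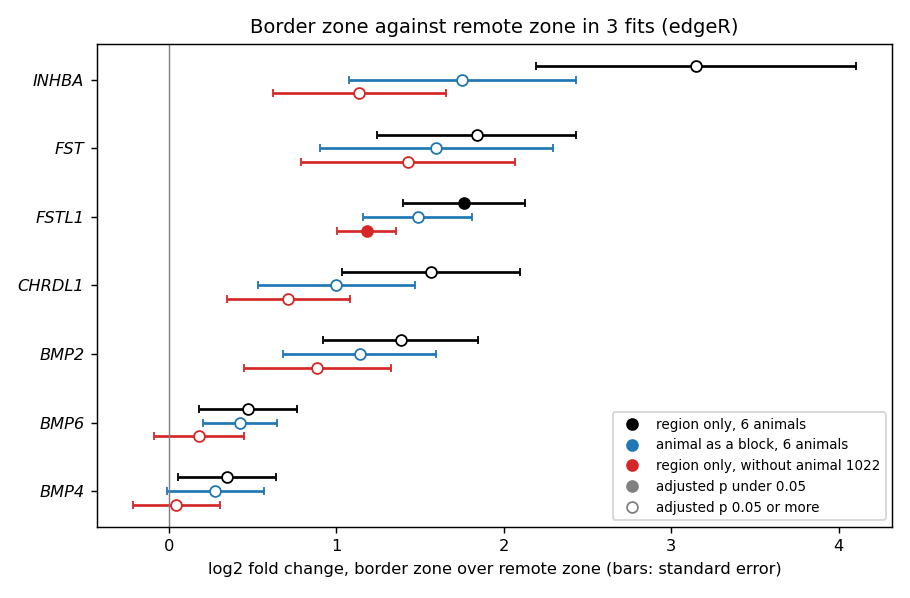
Fitted log2 fold changes of the 7 members tested, border zone over remote zone, with bars of 1 standard error, in the fit with region only, with the animal as a block, and with region only without animal 1022. Filled points have an adjusted p under 0.05, and FSTL1 is the only member with a filled point, at 1.76 and, without animal 1022, at 1.18.

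CHRDL1 (ENSSSCG00000012576, chrX:90703422-90827216, minus strand), a chordin-type antagonist of BMP4 and other BMPs, was measured at 58.0, 4.29, 11.4, 9.89, 19.5 and 5.62 CPM in the border zone and at 5.82, 7.12, 4.35, 7.36, 7.43 and 4.75 CPM in the remote zone, in the same order of animals. It was higher at the border in 5 of 6 animals and lower in animal 1322, by 0.72 on the log2 scale. Animal 1022 carried 53.4% of the summed border zone CPM. The fitted log2 fold change was 1.56 (SE 0.53, adjusted p = 0.110 by edgeR) and 0.71 (adjusted p = 0.351 by edgeR) without animal 1022. The Wald test of DESeq2 gave CHRDL1 an adjusted p of 0.0410.

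GREM1 (ENSSSCG00000033657, chr1:136617041-136629293, plus strand), a potent antagonist of BMP2, BMP4 and BMP7, was barely detected. It gave 4, 1, 0, 0, 3 and 2 counts in the border zone and 0, 0, 0, 0, 0 and 2 counts in the remote zone, in the same order of animals. The 7 libraries at 0 allow levels of up to 0.0883 to 0.156 CPM, and the highest library stood at 0.146 CPM, so no fold is given. A difference was not detectable at this depth, with p = 0.25 by the two-sided exact permutation test of signs over 6 animals.

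Between genes, levels can be compared only per length, here as CPM per 1000 exon bases of the RefSeq gene model. FSTL1 had medians of 88.3 in the border zone and 36.2 in the remote zone on that scale, far above the other 7 members with a gene model. INHBA has no value here. BMP6 followed with 5.46 and 4.62, although its model holds only 1643 exon bases, and CHRDL1 with 2.51 and 1.53. FST had 1.50 and 0.364, on a short model of 1037 exon bases, and BMP4 had 1.19 and 1.004. BMP2 (0.385 and 0.186), BMP7 (0.198 and 0.0596) and GREM1 (0.0217 and 0) had the lowest values of these 8. The short models of BMP6 and FST raise their values on this scale, so their place relative to CHRDL1 and BMP4 is uncertain.

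The 7 members tested shared the animal with the largest difference between zones, animal 1022, and for 6 of 7, all but FST, the smallest was in animal 1322. Animal 1022 had the highest border zone level of all 9 members but GREM1, whose highest was in animal 1922. Animal 1322 had the lowest border zone level of BMP2, BMP4, BMP7, INHBA, CHRDL1 and FSTL1, and its within-animal differences were below 0 for BMP2, BMP4, BMP6 and CHRDL1. Animal 1323 had a large difference in FST (3.15 on the log2 scale) and a smaller one in INHBA (0.64). Animals 1623 and 3622 had differences of 1.91 and 2.12 in INHBA, and of -1.18 and 1.10 in FST. BMP4 and BMP6 had differences between -0.09 and 0.71 on the log2 scale in animals 1323, 1623, 1922 and 3622.

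**Figure D3:**
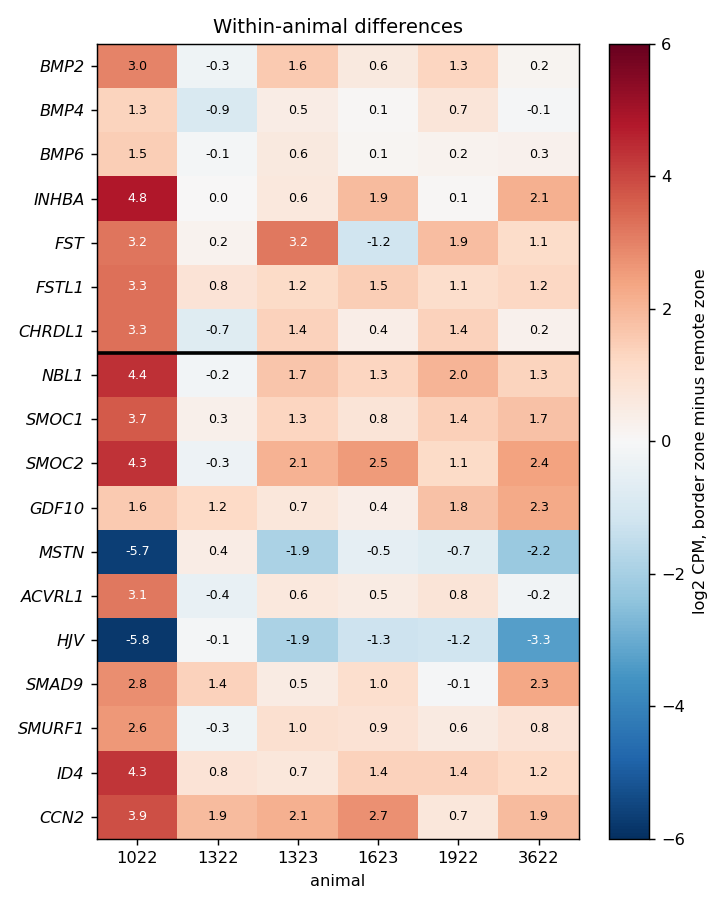
Within-animal differences in log2 CPM, border zone minus remote zone, for the 7 members tested (above the line) and other genes of the pathway (below it), with 1 column for each animal. In animal 1022 the difference reaches 4.79 for INHBA among the members and -5.77 for HJV among the other genes, and the members lie between -0.93 and 0.84 in animal 1322.

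The genes with the most similar profile over the 12 libraries were found from log2 CPM centred on each gene's mean, by the root mean square difference. For FSTL1 these were TXNDC5 (0.19) and IKBIP (0.20), for CHRDL1 EFEMP1 (0.29) and MMP14 (0.31), and for BMP2 PPP2R1B (0.28) and TNFAIP6 (0.30). For BMP4 they were BST2 and TTLL3 (0.18 each) and for BMP6 POC1B (0.19) and NCKAP5L (0.20). INHBA and FST had larger differences from their nearest genes, WDFY4 (0.49) and NCKAP1L (0.54) for INHBA and CACHD1 (0.59) and ITGB4 (0.61) for FST. Their own root mean square deviations were also larger, 1.59 and 1.19, against 0.473 to 1.02 for the other members tested. These values are descriptions over 12 libraries that share the contrast between zones.

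Other genes of the pathway were counted from lists by role. Of 27 other antagonists and modulators, 26 had an identifier and 15 were tested, with 3 called higher and 0 called lower, where 2.06% of all genes tested were called higher. Their median log2 fold change was 1.02, against 0.04 over all genes tested. NBL1, a DAN-family BMP antagonist, stood at 13.5 to 157 CPM (median 36.1) in border zone libraries and 7.12 to 22.0 CPM (median 12.9) in remote zone libraries, and rose by 2.08 on the log2 scale (SE 0.50, adjusted p = 0.0494 by edgeR). SMOC1 and SMOC2, matricellular proteins of which SMOC1 is described as a BMP antagonist, rose as well. SMOC1 was at 7.89 to 92.6 CPM in border zone libraries and 6.28 to 8.77 CPM in remote zone libraries, a change of 2.01 (SE 0.48, adjusted p = 0.0494 by edgeR). SMOC2 was at 12.1 to 70.9 CPM in border zone libraries and 3.40 to 14.7 CPM in remote zone libraries, a change of 2.15 (SE 0.46, adjusted p = 0.0338 by edgeR). The 3 calls were lost with the animal as a block, with changes of 1.71 for NBL1, 1.51 for SMOC1 and 2.05 for SMOC2 and adjusted p-values of 0.0901, 0.0821 and 0.0820 by edgeR. Without animal 1022 the changes were 1.28 for NBL1 (adjusted p = 0.112), 1.17 for SMOC1 (adjusted p = 0.0429) and 1.52 for SMOC2 (adjusted p = 0.0770), and all 3 calls were lost when animal 1323, 1623, 1922 or 3622 was left out, in fits that called 0 to 15 genes in all. In those fits the changes were 2.08 to 2.28 for NBL1, 2.04 to 2.22 for SMOC1 and 2.08 to 2.29 for SMOC2.

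Chordin itself (CHRD) and BMP1, the protease that cleaves chordin, lay just outside the threshold, and are named here after their values were seen. CHRD was at 5.99 to 46.3 CPM in border zone libraries and 3.25 to 5.82 CPM in remote zone libraries, with every border zone library above every remote zone library. BMP1 was at 24.8 to 127 CPM and 17.9 to 37.2 CPM. Both had an adjusted p of 0.0501 by edgeR, with log2 fold changes of 1.73 and 1.44. Without animal 1022 these were 0.98 for CHRD and 1.23 for BMP1. CHRD overlaps THPO on the opposite strand and BMP1 overlaps the long noncoding gene LOC110256603 by 2102 bases on the same strand in the RefSeq annotation.

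Of 22 other ligands, 20 had an identifier and 7 were tested. In the edgeR fit with region only, 0 were called in either direction. In that fit 5 had an unadjusted p under 0.05, as did 24.7% of all genes tested. DESeq2 called 4 of the 19 it tested, 3 higher and 1 lower, where it called 6.01% of all genes it tested. The median log2 fold change was -0.52 over the 7 that passed the filter. It was 1.46 over the 19 that DESeq2 tested and 2.0 over all 20 when edgeR was run without the filter. The medians over all genes tested in those fits were 0.35 and 0.75, so the sign holds only for the ligands that passed the filter. Over the same 7 ligands the median was -0.61 without animal 1322. GDF10, a BMP3-like ligand, had a change of 1.44 (SE 0.42, adjusted p = 0.0796 by edgeR), with 1.22 to 7.34 CPM in border zone libraries and 0.484 to 1.98 CPM in remote zone libraries, and it overlaps ZNF488 by 3378 bases on the opposite strand in the RefSeq annotation. MSTN (myostatin), made by striated muscle and held by follistatin, had a change of -1.24 (SE 0.65, adjusted p = 0.249 by edgeR) and gave 0 counts in the border zone of animal 1022, and it overlaps C15H2orf88 by 158 bases on the opposite strand. Without that animal the changes were 1.38 for GDF10 and -0.90 for MSTN. BMP5, named after its values were seen, had a change of -0.93 (adjusted p = 0.158 by edgeR) and of -0.57 without animal 1022, at 5.29 to 32.1 CPM in border zone libraries and 22.1 to 55.9 CPM in remote zone libraries. INHA, also named after its values were seen, had a change of -0.72 (adjusted p = 0.122 by edgeR) and of -0.70 without animal 1022. With the block it was -0.73 (adjusted p = 0.0565 by edgeR). Of the 7 ligands tested, 2 were lower in all 6 animals, INHA among them, and 2 were higher in all 6.

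Receptors, Smads and targets held no call in the edgeR fit with region only or in that with the animal as a block. Scaling by library totals called 4 targets and 1 of the Smads and regulators, in a fit that called 11.2% of all genes tested. An unadjusted p under 0.05 is set here against the 24.7% of all genes tested that reached it. Calls of DESeq2 are set against the 6.01% it called of all genes it tested, some of which had no adjusted p. Of the 14 receptors and co-receptors tested, with a median of 0.18 on the log2 scale (-0.007 without animal 1322), 4 had an unadjusted p under 0.05, and DESeq2 called 1 of the 15 it tested. ACVRL1, the endothelial type I receptor, had a change of 0.94 (adjusted p = 0.192 by edgeR) and of 0.21 without animal 1022, and HJV, the muscle and liver BMP co-receptor, a change of -1.80 (adjusted p = 0.0892 by edgeR) and of -1.44 without animal 1022, lower in all 6 animals. Of the 12 Smads and regulators tested, with a median of 0.24, 3 had an unadjusted p under 0.05, and DESeq2 called 2 of the 12 it tested. SMAD9 had a change of 1.30 (adjusted p = 0.103 by edgeR) and SMURF1, a ubiquitin ligase that acts on BMP Smads, 1.09 (adjusted p = 0.0812 by edgeR). Without animal 1022 these were 0.86 and 0.67. Of the 12 targets tested, with a median of 0.42 (over the same 12, 0.15 without animal 1022 and 0.51 without animal 1322), 6 had an unadjusted p under 0.05, and DESeq2 called 5 of the 15 it tested. CCN2, a matricellular gene also driven by TGF-β, had a change of 2.31 (adjusted p = 0.0588 by edgeR) and ID4, of the ID family of BMP targets, 2.01 (adjusted p = 0.0501 by edgeR). Without animal 1022 these were 1.87 and 1.12.

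**Figure D4:**
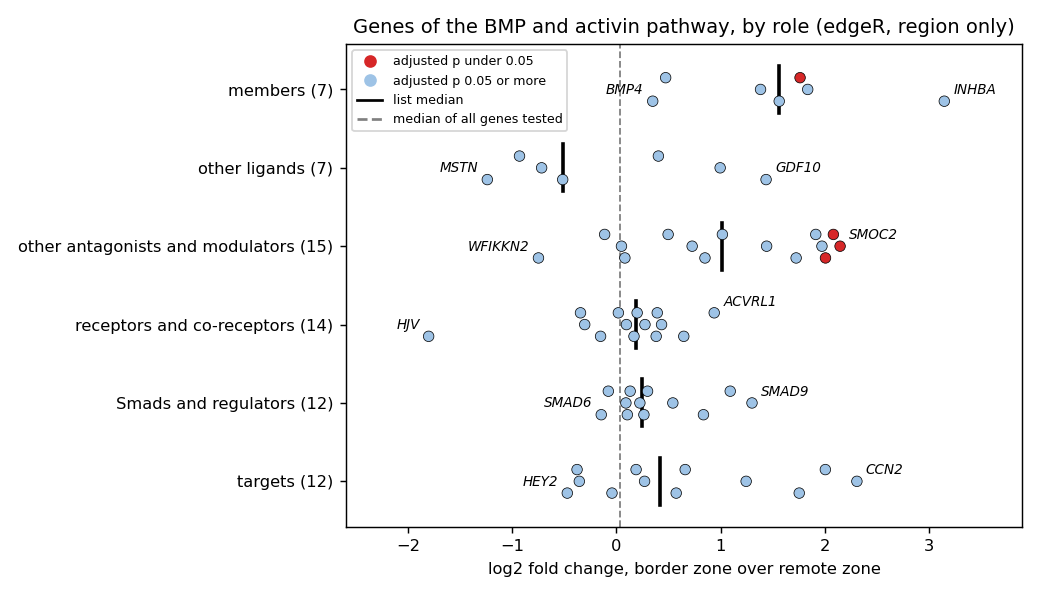
Fitted log2 fold changes, border zone over remote zone, of the tested genes of each list, with 1 point for each gene, red where the adjusted p was under 0.05, a black bar at the list's median and a dashed line at the median of all genes tested. The other antagonists and modulators have a median of 1.02 and 3 red points, and the other ligands that passed the filter a median of -0.52 and none. Without the filter the median of the other ligands was 2.0 over 20 genes, where that of all genes was 0.75.

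Summed levels of 8 marker lists were compared between the zones. The summed level of 9 fibroblast and matrix markers was 3021 to 66691 CPM in the border zone, with a median of 8366 CPM, and 1029 to 2575 CPM in the remote zone, with a median of 1624 CPM. It was higher in 6 of 6 animals, 8 of the 9 markers were called higher and 0 markers had a library at 0, and the highest sum was that of animal 1022. The cardiomyocyte sum was lower in the border zone of 6 of 6 animals. The sum of 8 macrophage markers was 103 to 1232 CPM in border zone libraries and 96.3 to 189 CPM in remote zone libraries, with medians of 227 and 121 CPM, and was higher at the border in 5 of 6 animals. With the border zone first, the sum of 8 smooth muscle and pericyte markers was 492 to 3087 CPM and 229 to 581 CPM, with medians of 757 and 499 CPM, and was higher in 5 of 6 animals. That of 8 endothelial markers was 377 to 521 CPM and 281 to 647 CPM, higher in 3 of 6 animals. The sum of 5 Schwann cell markers was 239.5 to 375 CPM and 154 to 247 CPM, with medians of 315 and 202 CPM, and was higher in 6 of 6 animals. The sum of 5 mesothelial and epicardial markers was 29.1 to 139 CPM and 25.9 to 98.0 CPM, higher in 5 of 6 animals, and that of 6 adipocyte markers 37.2 to 79.8 CPM and 34.3 to 152 CPM, higher in 3 of 6 animals. FSTL1 per 1000 CPM of fibroblast and matrix markers was 18.2 to 70.3 (median 44.8) in border zone libraries and 54.6 to 119.6 (median 87.6) in remote zone libraries, and CHRDL1 on the same scale 0.870 to 1.72 (median 1.27) and 1.84 to 5.65 (median 4.04), with the lower median in the border zone for both. In animals 1322 and 3622 the FSTL1 ratio was slightly higher at the border, at 70.3 against 69.7 and 55.9 against 54.6. It was lower at the border in the other animals, as the CHRDL1 ratio was in every animal. The part of these markers in the differences of the members was not tested.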

How the data were processed

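RNA of 6 pig hearts was measured in 12 libraries, 2 per heart. The authors enriched poly(A) RNA, kept no strand, aligned the reads with STAR to Sscrofa11.1 and counted them per Ensembl gene with featureCounts, and the deposited values are these raw counts, without normalization. Options for reads shared by genes are not given in the sources used here, and PCR copies could not be told apart from separate molecules, so intervals and floors cover counting error only. The total counts per library set the precision, and low members such as GREM1 and BMP7 are near the limit.

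Zone and animal came from the sample titles. The extraction text in the labels names border zone tissue for every library, the remote ones included, so the zone rests on the titles. Treatment was not used, since the labels do not give it for each animal. Symbols were matched to 15623 of 35682 identifiers, and 1 symbol with several identifiers was taken at the one with most counts. Tests were run with edgeR 4.0.16 in R 4.3.3 (filterByExpr by zone, TMM, robust quasi-likelihood test, region as the only term, threshold 0.05 on p-values adjusted over 13844 genes), DESeq2 1.42.0 and limma 3.58.1, and in Python 3.11.15 with pandas 2.3.3 and NumPy 2.4.6. The authors' own model compared treatments and had no term for zone. Standard errors were obtained as the log2 fold change over the square root of F. Levels in log2 CPM used a prior count of 2, and members under the filter used a pseudocount of 0.1. p-values of fits without the block measure the spread between libraries within a zone and do not use the pairing by animal. Those of the block and of the permutation test of signs measure the spread of the zone difference between these animals. Animals of both treatments are pooled in each. The steps were run on simulated data with changes of 2-fold and 4-fold. The fit with region only recovered 35.1% and 92% of these, with 8 false calls, and the block 23.7% and 88%, with 6 false calls. The simulated libraries had no animal effect, so the pairing was not tested.

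Libraries that share a number came from the same animal and are therefore paired. Their deviations from the zone means correlated across genes with a mean r of 0.35, from -0.03 in animal 1022 to 0.57 in animal 1323. The fit with the animal as a block is given beside a result where it changes the call.

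The members and lists were chosen with earlier results of these data known. The genes named are all members, list genes past the threshold in the fit with or without the block, the 2 largest changes of each list, and the 2 genes most like each member. CHRD, BMP1, BMP5 and INHA were named after their values were seen. Lists of other ligands, antagonists and modulators, receptors, Smads and targets, and of cardiomyocyte, fibroblast and matrix, endothelial, smooth muscle, macrophage, mesothelial, Schwann cell and adipocyte markers were described by counts and medians, with no list test. Alternatives were the block, the DESeq2 test, scaling by DESeq2 size factors or by library totals, testing without the filter or with a minimum of 10 counts per library, leaving out mitochondrial genes, another pseudocount and prior count, and each animal left out. The block with each animal left out was added after the data were seen.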

Additional observations from a re-analysis of the deposited data

Results flagged for a closer look

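In 34 groups of 6 libraries (each member and each marker list in each zone), 4 held 1 library set apart from the others by Dixon's criterion on the gap to the next library. Chance alone gives this in about 1 in 20 groups. The border zone library of animal 1022 was the highest for FSTL1, at 10.25 on the log2 CPM scale with the next at 8.63, and the highest for the summed smooth muscle and pericyte markers, at 11.59 with the next at 9.87. It was the lowest for the summed cardiomyocyte markers, at 13.39 with the next at 15.22. In the remote zone, GREM1 was at -2.10 on the log2(CPM + 0.1) scale in animal 3622, on 2 counts, with the other remote zone libraries at 0 counts and -3.32.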

How the results depend on the processing

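FSTL1 was called in the fit with region only, under DESeq2, with its size factors, with library totals, without the filter, with a minimum of 10 counts per library and without mitochondrial genes, and not with the animal as a replicate block. All genes called (287, of which 285 higher and 2 lower) became 41 (40 and 1) with the replicate block, 1724 (1415 and 309) by DESeq2, 1551 (1545 and 6) with library totals, 139 (138 and 1) without the filter and 149 (149 and 0) with the minimum of 10 counts. Over all genes, the median change was 0.04, and 0.32 when scaled by library totals. Members called were 1, against 0 with the replicate block, 3 by DESeq2 and 5 with library totals (FSTL1, FST, INHBA, BMP2 and CHRDL1), a setting that called 11.2% of all genes tested. List genes called were 3, against 0 with the replicate block, 19 by DESeq2, 14 with library totals, 0 without the filter, and 1 each with DESeq2 size factors, with the minimum of 10 counts and without mitochondrial genes. With 1 animal left out, genes called ranged from 0 (without animal 1623 or 3622) to 519 (without animal 1322), higher from 0 to 509, lower from 0 to 10, members from 0 to 1 and list genes from 0 to 9. With the replicate block and 1 animal left out these ranges were 0 to 856 (51 without animal 1322, all higher), 0 to 569, 0 to 287, 0 to 1 and 0 to 12. The median of the other ligands was -0.52, and -0.026 with the minimum of 10 counts, and ranged from -0.56 to 0.35 with 1 animal left out and from -0.61 to 0.30 with the block as well, over the 7 to 9 ligands tested in each fit. Over the same 7 ligands it was -0.61 without animal 1322, and over all ligands tested it was 1.46 by DESeq2 (19 genes) and 2.0 without the filter (20 genes), where the medians over all genes were 0.35 and 0.75. The median of the targets was 0.42, from 0.15 without animal 1022 to 0.72 without animal 1322, where 13 targets were tested (0.51 over the same 12), and that of the receptors 0.18, from -0.007 without animal 1322 to 0.27. The BMP7 difference was 0.991 with a pseudocount of 0.5. It ranged from 1.11 to 2.07 with 1 animal left out, with p = 0.0625 by the exact permutation test, the smallest that 5 animals allow. With a prior count of 0.5, 12 of the 14 genes most like a member remained. DESeq2 gave INHBA no adjusted p. The replicate block changed no other call of a member. The cause of these changes was not tested. At 5 to 147 counts per library for BMP2 and FST, small differences could not be seen.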
